A study of Mus musculus with 5 samples.

Results

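The genes described here are 10 genes of the p53 response and of growth arrest, Trp53, Mdm2, Cdkn1a, Gadd45a, Gadd45b, Gadd45g, Ccng1, Ccng2, Bbc3 and Pmaip1, chosen by symbol from the 22026 genes that each file lists. RNA-seq gave their transcript levels in 5 libraries, all from mouse embryos at the 4-cell stage made by nuclear transfer, in which an oocyte without its own nucleus receives the nucleus of another cell. All embryos were of strain B6D2F1. The groups were untreated embryos, embryos whose treatment is given as luciferase, embryos with H3.3 knockdown, embryos with H3.3 knockdown plus H3.3 mRNA, and embryos with H3.3 knockdown plus H3.2 mRNA. The last group is named after the title of its library, although the treatment label reads H3.3 mRNA. H3.3 is a histone H3 variant that enters chromatin independently of DNA replication, and H3.2 is an H3 form that is made for replication. The donor cell, the knockdown agent, the form in which luciferase was given and the number of embryos per library are not given in the sources used here. Each group is 1 library, so no value has a replicate, no spread can be given, and whether neighbouring levels differ beyond such spread is unknown.

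p53, encoded by Trp53, is a transcription factor that is stabilised by DNA damage and other stress and switches on genes that stop the cell cycle, repair DNA or start apoptosis. Its target Mdm2 encodes the ubiquitin ligase that marks p53 for destruction, which closes a feedback loop. The other genes act below p53 or beside it: some of them, the Gadd45 genes and Ccng2 in particular, also respond to stress signals that do not need p53. In early mouse embryos p53 is not needed for normal development, but damage to the embryo can engage it.

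The promoters of 9 of the 10 genes are in the RefSeq table of assembly GRCm38.p6, from 250 bases before to 50 bases after the annotated transcription start. Those of 5 genes are shown because these genes span the patterns described below, from Cdkn1a, which varied little between libraries, to Gadd45a and Ccng2, which were lowest in the knockdown library. Capitals mark matches, on either strand, to the 10-base p53 decamer consensus and to the GC box GGGCGG. The 5 promoters lie at chr17:29090729-29091028 on the plus strand (Cdkn1a, the first of its annotated starts), chr10:117710709-117711008 on the minus strand (Mdm2), chr11:40755237-40755536 on the minus strand (Ccng1), chr6:67037358-67037657 on the minus strand (Gadd45a) and chr5:93267323-93267622 on the plus strand (Ccng2).
Cdkn1a: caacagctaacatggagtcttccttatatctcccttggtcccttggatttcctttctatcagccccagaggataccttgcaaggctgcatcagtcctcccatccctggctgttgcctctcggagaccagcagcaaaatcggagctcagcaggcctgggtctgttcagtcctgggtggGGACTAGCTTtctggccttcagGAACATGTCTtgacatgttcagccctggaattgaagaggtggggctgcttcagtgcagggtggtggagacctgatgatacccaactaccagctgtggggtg
Mdm2: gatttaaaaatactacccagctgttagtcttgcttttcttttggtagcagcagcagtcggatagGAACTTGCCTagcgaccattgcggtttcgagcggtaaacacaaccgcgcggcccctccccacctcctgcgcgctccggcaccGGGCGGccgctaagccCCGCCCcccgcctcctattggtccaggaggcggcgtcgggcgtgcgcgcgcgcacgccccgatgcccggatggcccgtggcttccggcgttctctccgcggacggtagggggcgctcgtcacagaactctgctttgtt
Ccng1: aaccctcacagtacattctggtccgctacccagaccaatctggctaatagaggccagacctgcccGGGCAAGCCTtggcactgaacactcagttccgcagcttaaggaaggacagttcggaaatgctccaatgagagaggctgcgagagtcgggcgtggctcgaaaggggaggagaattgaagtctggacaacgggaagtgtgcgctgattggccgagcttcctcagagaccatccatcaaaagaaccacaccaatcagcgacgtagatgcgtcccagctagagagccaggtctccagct
Gadd45a: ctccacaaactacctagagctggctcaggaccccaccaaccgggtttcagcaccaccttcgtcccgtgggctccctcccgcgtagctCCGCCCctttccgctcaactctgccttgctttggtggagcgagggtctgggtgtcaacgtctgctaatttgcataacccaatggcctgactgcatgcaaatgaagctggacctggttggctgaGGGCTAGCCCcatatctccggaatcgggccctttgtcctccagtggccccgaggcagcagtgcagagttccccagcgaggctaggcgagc
Ccng2: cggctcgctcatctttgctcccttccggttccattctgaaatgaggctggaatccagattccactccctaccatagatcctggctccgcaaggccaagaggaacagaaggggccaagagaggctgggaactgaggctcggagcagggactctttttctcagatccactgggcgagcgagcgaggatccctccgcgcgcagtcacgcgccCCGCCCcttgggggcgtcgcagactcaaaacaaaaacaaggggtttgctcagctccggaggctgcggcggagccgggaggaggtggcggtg

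The decamer occurred in promoters of 5 of the 9 genes, Trp53, Mdm2, Cdkn1a, Gadd45a and Ccng1, counting a gene with a match in any of its annotated promoters (12 promoters for the 9 genes). By the same count it occurred in 9.56% of the 27018 genes of the table, and in 8.36% of its 32841 single promoters. Cdkn1a held 2 matches, which begin 73 and 51 bases before the first of its annotated starts. Its second annotated promoter, further downstream at chr17:29093519-29093818, held none. The matches begin 186 bases before the start in Mdm2, 185 in Ccng1, 75 in Trp53 and 40 in Gadd45a. Counted by gene in this way, the GC box occurred in 6 of the 9 and in 38.2% of all genes, the CCAAT box (CCAAT) in 7 of the 9 and in 41.1%, the TATA box (TATAAA) in 3 of the 9 and in 15.7%, and the FOXO core (TGTTTAC) in Mdm2 and Bbc3 and in 4.05% of all genes. The shares of single promoters were 35.7%, 37.4%, 13.6% and 3.65%, in the same order. All were searched on both strands, and no match overlapped a match of another motif. Ccng2 held a GC box alone among these motifs. A match is a stretch of letters and not a measured binding site, and the genes were chosen as members of this pathway.

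The level of H3f3a plus H3f3b, the genes of H3.3, in the library labelled H3.3 knockdown was 12.6% of its level without treatment and 11.6% of that with luciferase. It was 7.98% to 8.86% in the add-back libraries relative to untreated, and was thus not higher with H3.3 mRNA than without it, but whether the added mRNA falls within the gene models counted is unknown. The sequencing depth is unknown, and between 10443 and 12300 genes were above 0 FPKM, a read count divided by transcript length and by the total mapped in the library. Of 9 early embryo markers 6 to 8 were above 0 in each library. Fibroblast markers were at 0 for 7 to 10 of 11 genes (summed level 15.1 to 69.5 FPKM), with Col1a1, Col3a1 and Dcn at 0 in all libraries, and cumulus and granulosa markers were at 0 for 7 to 10 of 12 genes (332 to 1076 FPKM, largely Amhr2 except in the untreated library, where Tnfaip6 was higher), with Has2, Ptx3 and Fshr at 0 in all. Of 5 blood markers 3 or 4 were at 0 (20.2 to 75.6 FPKM). Of 10 oocyte markers at most 2 were at 0, and their sum was 5041 FPKM in the untreated library against 291 to 1586 FPKM in the others.

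Gadd45a, Ccng2 and Pmaip1 each lay at least 4-fold below both controls in the knockdown library, and none of the 10 genes lay 4-fold above them. A gene was counted as 4-fold higher or lower where the difference of log2(FPKM + 1) was 2 or more, a scale that understates the change of low values, whereas a fold given for a single gene is the ratio of its FPKM values. All 10 genes passed a filter that kept 13144 genes whose mean over the libraries was 1 FPKM or more. Of those, 6.35% lay below both controls by this rule and 4.98% above, so 3 of 10 is above the background share, on few genes and without a test. The 10 genes were chosen with earlier results of these data known, so this share is a description only. Against the untreated library alone 4 of the 10 were 4-fold lower (background 15.6%) and none higher (16.8%), and against luciferase alone 3 were lower (18.9%) and none higher (9.74%). A lower level in such bulk RNA can mean fewer cells with the transcript or less of it per cell, which cannot be told apart. Of 10 oocyte markers, 7 were at least 4-fold above luciferase in the knockdown and 0 below, with a median difference of 2.50. Against untreated, 1 was higher and 3 were lower, with a median of -1.45. The part of these markers in the values of the 10 genes was not tested. Among all genes called against luciferase, 34.1% were higher, and 45.5% were with quantile normalization.

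**Figure D1:**
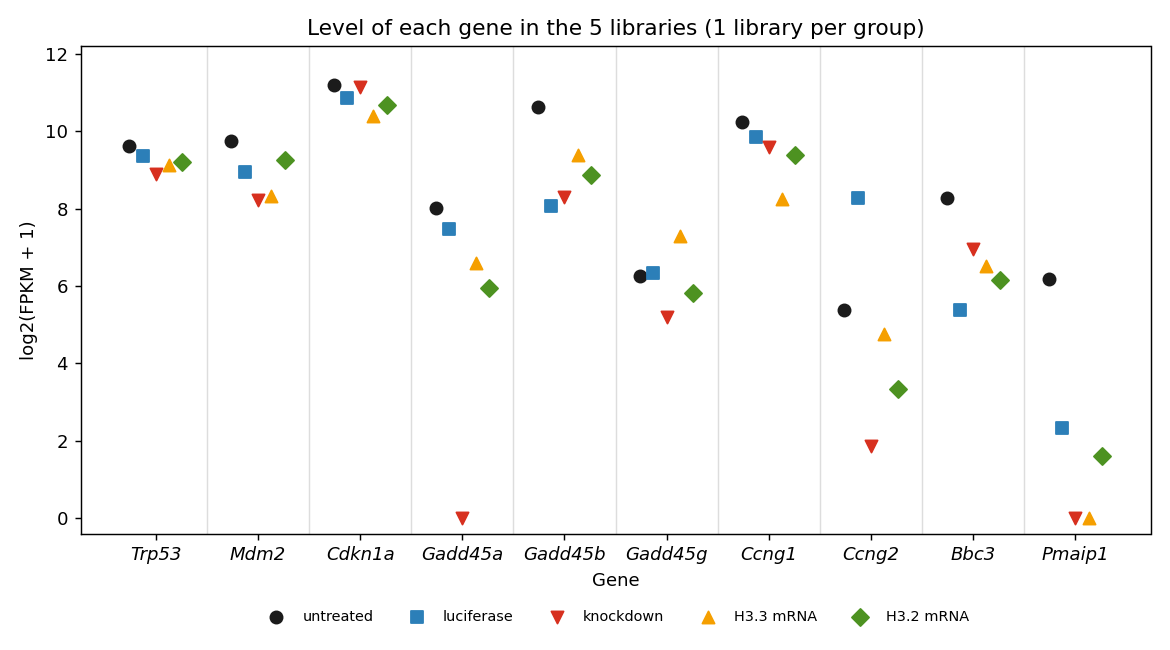
Level of the 10 genes as log2(FPKM + 1) (vertical axis) in the 5 libraries (marker shape and colour, 1 point per library and no error bars). Trp53 and Cdkn1a points lie within 0.74 and 0.80 of each other, whereas Gadd45a, Ccng2 and Pmaip1 spread over 8.02, 6.39 and 6.19. The spreads of Gadd45a and Pmaip1 start from a listed 0 and depend on the pseudocount.

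Trp53 and Mdm2, the factor and its ligase, were well above the middle of all genes in every library. Trp53 stood at 787 FPKM in the untreated, 652 in the luciferase, 471 in the knockdown, 558 in the H3.3 mRNA and 590 in the H3.2 mRNA library. The 3 libraries with knockdown were thus all below the 2 controls, and the highest value was 1.67-fold the lowest. The step from the H3.2 mRNA to the luciferase library was 1.10-fold, and with upper-quartile or quantile scaling the groups overlapped. Mdm2 stood at 851 FPKM in the untreated, 488 in the luciferase, 299 in the knockdown, 322 in the H3.3 mRNA and 604 in the H3.2 mRNA library. Its H3.2 mRNA value lay between those of the controls, and its knockdown value was 2.84-fold lower than untreated and 1.63-fold lower than luciferase, both short of 4-fold.

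Because library scaling cancels within a library, the ratio of Mdm2 to Trp53 can be read without it. This ratio of FPKM values was 1.08 in the untreated, 0.749 in the luciferase, 0.636 in the knockdown, 0.576 in the H3.3 mRNA and 1.02 in the H3.2 mRNA library. Mdm2 was thus above Trp53 in the untreated and H3.2 mRNA libraries and below it in the others, a split that follows neither the knockdown nor the controls.

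Cdkn1a, which encodes the cyclin-dependent kinase inhibitor p21, was the highest of the 10 genes in every library. It stood at 2320 FPKM in the untreated, 1854 in the luciferase, 2266 in the knockdown, 1334 in the H3.3 mRNA and 1630 in the H3.2 mRNA library. Its level exceeded that of 96.7% to 98.5% of the genes past the filter in each library. The knockdown value lay between the controls, and its difference of -0.03 from the untreated library on the log2 scale became 0.18 with upper-quartile and 0.16 with median-of-ratios scaling. Relative to Trp53, Cdkn1a was at 4.81 in the knockdown and at 2.39 to 2.95 in the other 4 libraries. The longest annotated transcripts of Cdkn1a and Trp53 have 2080 and 3275 bases. Longer transcripts were lower in the knockdown than in luciferase (rank correlation -0.39), and such a trend does not cancel within a library. Its part in this ratio and in the share that follows was not tested. In the knockdown library Cdkn1a made up 52.9% of the summed FPKM of the 10 genes, against 31.0% to 39.2% in the others.

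The Gadd45 genes encode 3 related small proteins that bind stress kinases, PCNA and the Cdk1 kinase and take part in growth arrest and repair, and each had its own pattern. Gadd45a stood at 258 FPKM in the untreated, 175 in the luciferase, 95.3 in the H3.3 mRNA and 61.2 in the H3.2 mRNA library, and the knockdown library listed it at 0. Both controls were therefore above all 3 knockdown libraries, and the add-back libraries lay between. A value of 0 can be a failed estimate, so no fold is given against it; 3.46% of the genes past the filter were at 0 in the knockdown alone, and 21.2% were at 0 there with or without other libraries. Reads of Gadd45a and of E230016M11Rik, a noncoding gene whose exons overlap it on the opposite strand in the GENCODE annotation, cannot be told apart if strand was not kept, which the sources used here do not say. The same applies to Cdkn1a, whose exons overlap the gene model AC167363.2 on the opposite strand.

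Gadd45b was the most abundant Gadd45 gene in all 5 libraries. It stood at 1567 FPKM in the untreated, 268 in the luciferase, 316 in the knockdown, 672 in the H3.3 mRNA and 462 in the H3.2 mRNA library. The untreated library stood alone, 2.33-fold above the next, and the knockdown was 4.96-fold below untreated but 1.18-fold above luciferase, a difference of 0.24 that became -0.16 when the trend with transcript length was removed. Gadd45g stood at 75.7 FPKM in the untreated, 80.1 in the luciferase, 35.8 in the knockdown, 156 in the H3.3 mRNA and 55.0 in the H3.2 mRNA library. It was highest with H3.3 mRNA and lowest in the knockdown, 2.12-fold and 2.24-fold below the untreated and luciferase libraries.

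Within the family the make-up differed from library to library. Gadd45a contributed 33.4% of the summed Gadd45 FPKM in the luciferase library, 13.6% in the untreated, 10.3% with H3.3 mRNA, 10.6% with H3.2 mRNA and 0% in the knockdown. The luciferase library thus had the largest Gadd45a share, and the add-back libraries were close to each other. The summed family level was 1901 FPKM in the untreated, 523 in the luciferase, 352 in the knockdown, 924 in the H3.3 mRNA and 578 in the H3.2 mRNA library.

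**Figure D2:**
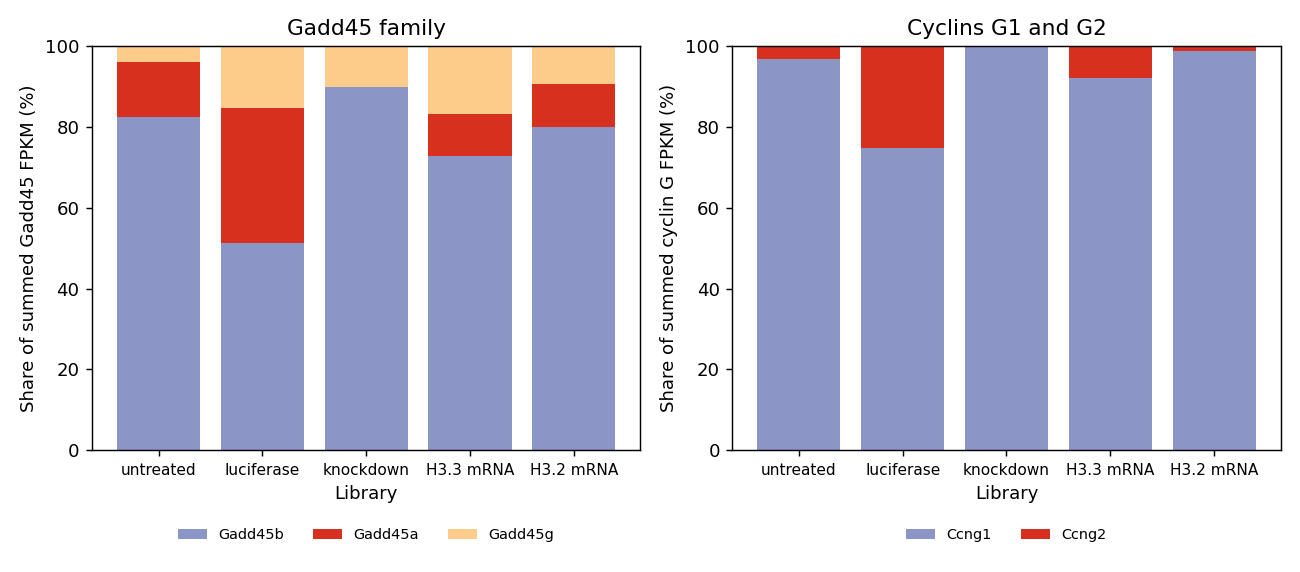
Share of each gene in the summed FPKM of its family (vertical axis, percent) in the 5 libraries (horizontal axis), for the Gadd45 genes on the left and the cyclin G genes on the right, with 1 library per bar. Gadd45a has no share in the knockdown bar and 33.4% in luciferase, and Ccng2 holds 25.2% in luciferase and 0.345% in the knockdown, too thin to see.

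Ccng1 and Ccng2 encode the G-type cyclins, which are linked to arrest rather than to progress of the cell cycle. Ccng1, a p53 target, stood at 1205 FPKM in the untreated, 913 in the luciferase, 768 in the knockdown, 301.5 in the H3.3 mRNA and 669 in the H3.2 mRNA library. All 3 knockdown libraries were below both controls, with H3.3 mRNA the lowest and not the knockdown alone. The knockdown was 1.57-fold and 1.19-fold below the untreated and luciferase libraries. Ccng2, a cyclin G gene that FOXO factors are known to switch on, stood at 40.9 FPKM in the untreated, 307 in the luciferase, 2.66 in the knockdown, 26.1 in the H3.3 mRNA and 9.05 in the H3.2 mRNA library. It too was below both controls in all 3 knockdown libraries, and its knockdown value was 15.4-fold below untreated and 115-fold below luciferase. The controls themselves were 7.51-fold apart. The FPKM ratio of Ccng1 to Ccng2 was 29.5 in the untreated and 2.97 in the luciferase library. It was 289 in the knockdown, 11.6 in the H3.3 mRNA and 74.0 in the H3.2 mRNA library. The cyclin pair was thus most unequal in the knockdown, where the ratio rests on 2.66 FPKM of Ccng2. Its log2 differences from untreated and luciferase, -3.52 and -6.39, became -2.58 and -5.35 with a pseudocount of 5. They became -2.72 and -5.65 with quantile normalization.

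Bbc3 and Pmaip1 encode the BH3-only proteins Puma and Noxa, which start apoptosis by blocking anti-apoptotic BCL2 proteins. Bbc3 stood at 308 FPKM in the untreated, 40.6 in the luciferase, 122 in the knockdown, 90.4 in the H3.3 mRNA and 69.9 in the H3.2 mRNA library. All 3 knockdown libraries lay between the controls, which were 7.59-fold apart. The 2 libraries whose source is named SCNT, luciferase and H3.2 mRNA, were below the 3 named NT for Bbc3 alone of the 10 genes, as they were for 8.48% of all genes, and were above them for none of the 10 and for 11.9% of all. Pmaip1 was the lowest gene on average, at 71.8 FPKM in the untreated, 4.02 in the luciferase and 2.05 in the H3.2 mRNA library, and listed at 0 in the knockdown and H3.3 mRNA libraries. The untreated library was 17.9-fold above luciferase, so the 4-fold call against luciferase rests on 4.02 FPKM against 0, and it ended with a pseudocount of 5 (difference -0.85) and with quantile normalization (-1.62).

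**Figure D3:**
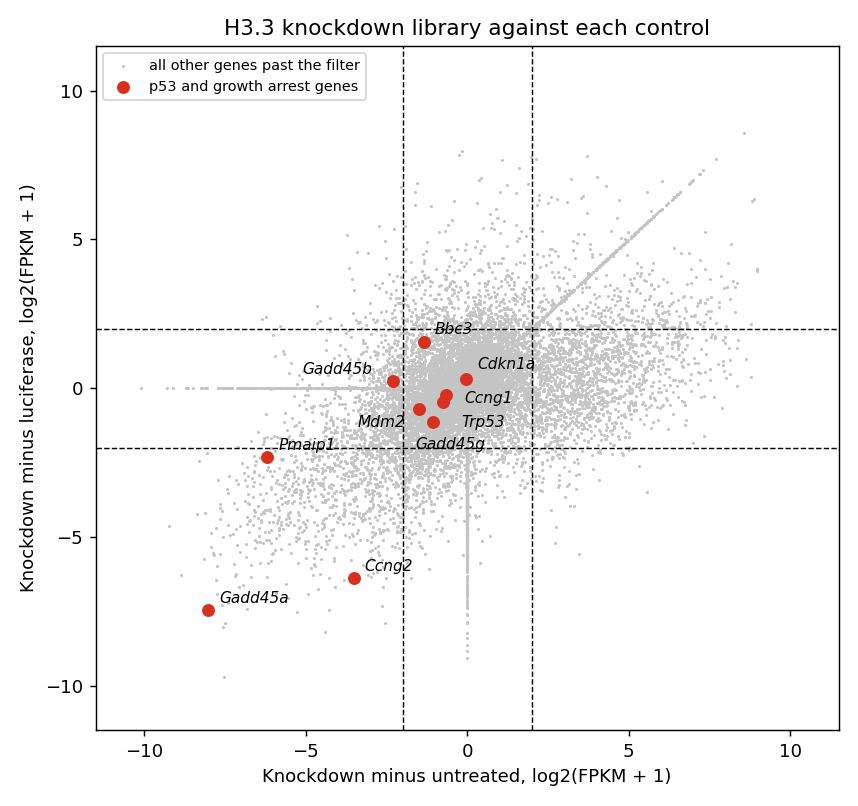
Knockdown minus untreated (horizontal axis) and knockdown minus luciferase (vertical axis) on the log2(FPKM + 1) scale for the 13144 genes past the filter (grey) and the 10 genes (red), with dashed lines at 4-fold. Gadd45a, Ccng2 and Pmaip1 lie in the lower left, past both lines, and the grey genes on the straight lines are at 0 in 2 or more of the 3 libraries.

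Both control libraries and the 3 knockdown libraries were also set apart by rank. For 5 genes, Trp53, Gadd45a, Ccng1, Ccng2 and Pmaip1, all 3 knockdown libraries were below both controls, and for none were all 3 above. Over all genes past the filter these shares were 8.83% and 7.14%. Upper-quartile and quantile scaling left the same genes without Trp53. The 3 libraries have different labels and are not replicates of 1 condition. Without the untreated library the same 5 genes were below luciferase in all 3 (background 24.1%) and Gadd45b and Bbc3 were above it (16.6%), and without the luciferase library 9 of the 10 were below untreated (29.2%), Cdkn1a among them, whose knockdown value turns with the scaling as given above.

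The untreated library held the highest level of 8 of the 10 genes, all but Gadd45g and Ccng2, as it did for 26.3% of all genes, and the lowest level of none (20.7%). That count was 6 with upper-quartile scaling, 7 with median-of-ratios scaling and 5 with quantile normalization. To some degree all 10 genes were below the untreated level in the knockdown (46.6% of all genes were, and 40.9% were above), and 9 were with upper-quartile or median-of-ratios scaling, where Cdkn1a turned. Against luciferase, 7 were below (52.6%), and Cdkn1a, Gadd45b and Bbc3 were above (41%), of which Cdkn1a was level with luciferase after quantile normalization (-0.002) and Gadd45b turned as given above. Among the 7, Ccng1 lay at only -0.25, and Trp53 came close to level once the trend with transcript length was removed. The knockdown library held the lowest value of 5 genes, Trp53, Mdm2, Gadd45a, Gadd45g and Ccng2 (20.4% of all genes), and the highest of none (19%). The median difference of the 10 genes was -1.42 against untreated and -0.59 against luciferase, beside 0.00 and -0.12 for all 13144 genes. Among the genes above 0 in all libraries these medians were -0.20 and -0.07. The untreated library also held the highest summed level of oocyte markers given above, and the part of that in these values was not tested.

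Between the controls, Ccng2 was 4-fold higher in the luciferase library (background 23.5%), and Gadd45b, Bbc3 and Pmaip1 were lower (13.4%). To some degree 8 of the 10 were below the untreated level with luciferase (43.8% of all genes), and Gadd45g and Ccng2 were above (50.4%). The median difference was -0.48 against 0.02 for all genes, and -0.12 for the genes above 0 in all 5 libraries. Of 10 oocyte markers, 9 were at least 4-fold lower with luciferase than without treatment and 0 higher, with a median difference of -4.24. The part of these markers in the difference between the controls was not tested. The luciferase library held the highest Ccng2 value of all libraries (18.2% of all genes) and the lowest values of Gadd45b and Bbc3 (11.3%). For Cdkn1a, Gadd45b and Bbc3 the knockdown value lay between the controls. The distance between controls is then by construction larger than either distance of the knockdown from a control. For Gadd45a it was 0.56 on the log2 scale, against 8.02 and 7.46 for the knockdown. These last 2 sizes rest on a listed value of 0 and depend on the pseudocount. As knockdown minus untreated and minus luciferase they were -5.72 and -5.17 with a pseudocount of 5, and -11.3 and -10.8 with 0.1.

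The add-back libraries were next compared with the knockdown library. With H3.3 mRNA, Gadd45a, Gadd45g and Ccng2 were at least 4-fold higher (background 16.4%) and none was lower (10.1%). To some degree 6 genes were higher (48.9%), Mdm2 no longer once the length trend was removed (-0.14), and Cdkn1a, Ccng1 and Bbc3 were lower (41.1%). This comparison shares the knockdown library with those above. Gadd45g was 4.36-fold and Ccng2 9.80-fold higher than in the knockdown, and both calls ended with quantile normalization, where the differences lay just under 2 (1.98 for Gadd45g). The Gadd45g call also ended with a pseudocount of 5 (1.98). Cdkn1a and Ccng1 went the other way and had their lowest values of all libraries with H3.3 mRNA (11.9% of all genes did, and 16.7% had their highest there, as Gadd45g did), 1.70-fold and 2.55-fold below the knockdown, neither past 4-fold.

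With H3.2 mRNA, Gadd45a was the 1 gene at least 4-fold higher than in the knockdown (background 19.5%), and none was lower (9.11%). To some degree 7 genes were higher (53%), and Cdkn1a, Ccng1 and Bbc3 were lower (40.1%). Some of these directions depend on the scaling: Ccng1 turned to 0.02 with upper-quartile scaling and 0.34 with quantile normalization, Cdkn1a to 0.38 with the latter, and Trp53, among the 7, to -0.06 once the trend with transcript length was removed. Ccng2 was 3.40-fold, Mdm2 2.02-fold and Gadd45g 1.54-fold higher. The difference of 1.46 for Ccng2 became 0.17 with quantile normalization and 0.79 without the length trend, and that of 0.61 for Gadd45g became 1.70 without it. Among all genes called in this pair, 68.1% were higher, and 55.0% were with quantile normalization. Between the add-back libraries none of the 10 genes differed by 4-fold in either direction, while 12.6% of all genes were higher and 8.38% lower with H3.2 mRNA. Here Gadd45g was 2.84-fold and Ccng2 2.88-fold lower with H3.2 mRNA, and Ccng1 was 2.22-fold higher.

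Set against the controls, the add-back values of Gadd45a and Ccng2 did not reach either control. Gadd45a was 2.71-fold below untreated and 1.84-fold below luciferase with H3.3 mRNA, and 4.22-fold and 2.86-fold below them with H3.2 mRNA. Ccng2 was 1.57-fold and 11.8-fold below the controls with H3.3 mRNA, and 4.51-fold and 33.9-fold below with H3.2 mRNA. Ccng2 was thus nearer to the untreated than to the luciferase level in both add-back libraries. By the 4-fold rule, Pmaip1 alone was lower with H3.3 mRNA than without treatment (13.8% of all genes) and none was higher (20.6%), with Ccng1 just short of the limit, and Ccng2 and Pmaip1 were below luciferase (12.5%) and none above (8.7%). With H3.2 mRNA, Gadd45a, Ccng2, Bbc3 and Pmaip1 were below untreated (12.7%) and none above (24.1%), and Ccng2 was below luciferase (9.84%) and none above (10.4%). To some degree all 10 genes were below the untreated level with H3.2 mRNA (44.1% of all genes, with 49.3% above), a count of 9 with upper-quartile scaling and 7 with quantile normalization.

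**Figure D4:**
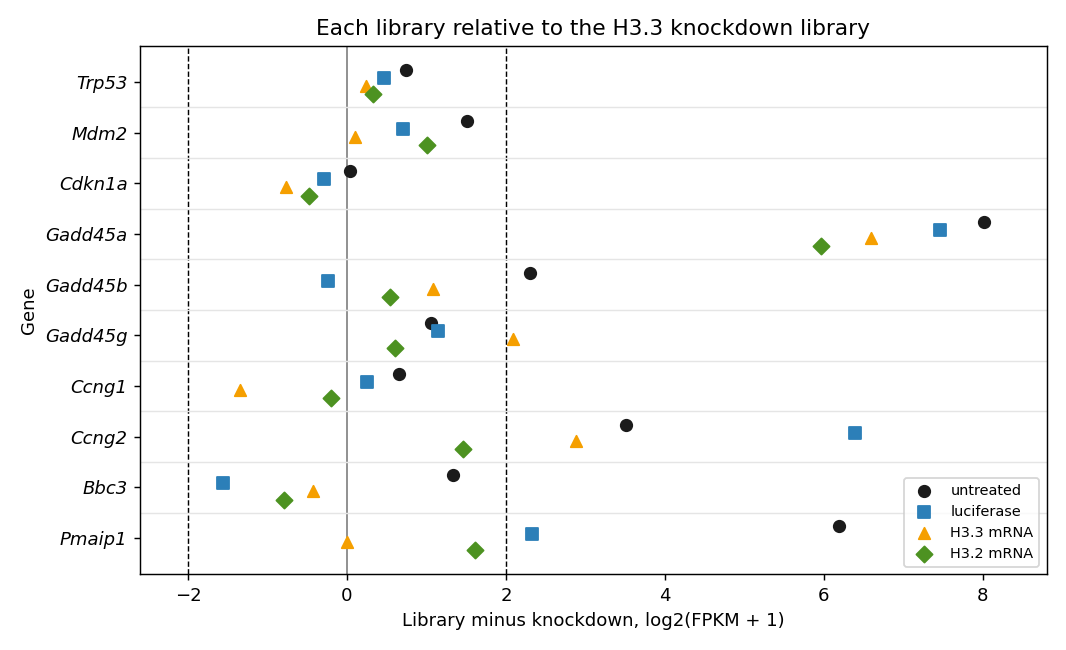
Difference of each of the 4 other libraries from the knockdown library on the log2(FPKM + 1) scale (horizontal axis) for the 10 genes (vertical axis), with a solid line at 0, dashed lines at 4-fold and 1 point per library. All 4 points of Gadd45a lie at 5.96 or more, while all 4 of Cdkn1a lie between -0.76 and 0.03. The Gadd45a sizes depend on the pseudocount, as its knockdown value is listed at 0.

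Further genes of the pathway were taken from 5 lists, with 84 genes past the filter. Of these, 6 (7.14%) lay at least 4-fold below both controls in the knockdown, a share near the background of 6.35%. Those 4-fold above both controls numbered 0, beside a background of 4.98%. Among 17 regulators of p53, 1 was lower, Ppm1d, the phosphatase Wip1 that dampens the p53 response. It was at 16.5 FPKM without treatment, 28.1 with luciferase, 3.01 in the knockdown, 87.4 with added H3.3 and 19.6 with added H3.2 mRNA. The regulators had median differences of -0.35 against untreated and 0.00 against luciferase. For Hipk2, a kinase that phosphorylates p53, the knockdown value was 29.7 FPKM and the control values were 1.84 and 9.66. The acetyltransferase genes Ep300 and Crebbp were at 28.0 and 9.05 FPKM in the knockdown. In the controls Ep300 was at 19.5 and 5.60 FPKM, and Crebbp at 26.3 and 18.3 FPKM.

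Among 32 other p53 targets, 2 were lower and 0 higher than in both controls, with medians of -0.26 and -0.34. Both lower genes, Dram1, which acts in autophagy, and Tap1, a peptide transporter of antigen presentation, were listed at 0 in the knockdown. Dram1 was at 38.5 FPKM without treatment and 31.4 with luciferase, and Tap1 was at 186 and 30.9. Bax, the apoptosis effector, was at 485 and 164 FPKM in the controls, 1076 in the knockdown, 231 with added H3.3 and 168 with added H3.2 mRNA. The repair gene Xpc was listed at 0 in the untreated library and lay between 15.9 and 24.6 FPKM in the others.

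Of 4 CDK inhibitor genes past the filter, none was 4-fold from both controls, and their medians were 1.38 and 1.40. Cdkn2c, which encodes p18, stood at 35.6 and 41.2 FPKM in the controls, 159 in the knockdown, 5.47 with added H3.3 and 46.7 with added H3.2 mRNA. Cdkn2d, which encodes p19, stood at 218 and 29.1 FPKM in the controls, 336 in the knockdown, 121 with added H3.3 and 79.2 with added H3.2 mRNA. Both were highest in the knockdown. Cdkn1b, which encodes p27, was low in the luciferase library and all 3 knockdown libraries, at 1.07 to 2.82 FPKM, against 16.5 in the untreated library, and Cdkn3 was at 24.2 FPKM in the knockdown, 15.2 in the luciferase, 9.27 in the H3.3 mRNA and 0 in the other libraries.

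Of 19 growth arrest and antiproliferative genes, 3 were lower than in both controls and 0 higher, with medians of -0.94 and -0.53. Gas2, Gas6 and Rbl2 were listed at 0 in the knockdown. Gas6, a ligand of the TAM receptors, stood at 36.8 and 57.2 FPKM in the controls, 16.3 with added H3.3 and 4.07 with added H3.2 mRNA, and Gas2, linked to the cytoskeleton, at 143 and 25.6, 13.7 and 9.28 FPKM. Rbl2, the pocket protein p130, stood at 30.6 FPKM in the untreated library and between 2.96 and 3.51 FPKM in the luciferase and add-back libraries. The knockdown held 7.60 FPKM of Tob2, an antiproliferative gene, against 155 and 25.8 in the controls. Of 12 genes of the G1 cyclins and kinases none was 4-fold from both controls, with medians of 1.59 and 0.33, and E2f1, a driver of S phase entry, was at 189 FPKM in the knockdown against 17.2 and 60.9 in the controls. Without treatment Ccnd1 and E2f3 were listed at 0, and they stood at 24.6 and 8.24 FPKM in the knockdown, and Ccnd2 was at 22.2 FPKM without treatment, 0.78 with luciferase and 0 in the knockdown.

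The genes whose levels followed each of the 10 most closely were sought among 10052 genes with a mean of 5 FPKM or more and a name other than that of a clone or gene model, by the root mean square difference of centred log2 values over the 5 libraries. With 5 libraries many genes lie close by, and the measure is a description. The closest were Wtap, Sec31a and Tars2 for Trp53 (0.08 each), Mfap3, Pias2 and Trp53inp1 for Mdm2 (0.09, 0.09 and 0.11), and Gcdh, Sdf4 and Psmd8 for Cdkn1a (0.06, 0.10 and 0.11). Trp53inp1 is itself a p53 target of the lists, at 206 FPKM in the untreated, 124 in the luciferase, 62.6 in the knockdown, 83.9 in the H3.3 mRNA and 140 in the H3.2 mRNA library. For Gadd45b they were B3gnt1, Slc38a7 and Carhsp1 (0.08, 0.09 and 0.09), for Gadd45g Smg5, Rnf126 and Ormdl3 (0.09, 0.11 and 0.14), for Ccng1 Elp4, Ccdc107 and Thoc3 (0.12, 0.16 and 0.17) and for Bbc3 Tmem115, Ccno and Cpsf4 (0.06, 0.11 and 0.13).

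Gadd45a and Ccng2, at or near 0 in the knockdown, had more distant neighbours. They were Pdzd3, Glmn and Zfp341 for Gadd45a (0.53, 0.58 and 0.60), all listed at 0 in the knockdown, and Fam129b, Hk2 and Nanog for Ccng2 (0.45, 0.53 and 0.61), also at 0 there. For Pmaip1 they were Ptprn, Heyl and P2rx3 (0.10, 0.27 and 0.29), which were at 0 in both the knockdown and the H3.3 mRNA library. Among the 10 genes themselves the closest pairs were Trp53 with Cdkn1a (0.34) and Trp53 with Mdm2 (0.36), the genes with the narrowest ranges.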

How the data were processed

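The authors deposited 1 table per library with an FPKM value for each gene symbol. TopHat and Cufflinks and the mm9 build are named in the submitters' processing notes, without versions. Libraries were Illumina TruSeq read from 1 end over 51 bases, per the labels. FPKM divides by length and library total, so abundant transcripts shift all others. Ratios of low values (all 5 values under 20 FPKM, 333 genes) showed no steps worth 1 read, since no bin of 0.1 log2 held over 4.80%, so depth is unknown and no interval is given.

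Differences of log2(FPKM + 1) were computed with Python 3.11.15, numpy 2.4.6 and pandas 2.3.3 over genes whose mean was 1 FPKM or more. With 1 library per group there is no test. Of 95 list symbols, 92 genes matched. Named are the 10 genes, up to 4 genes per list with the largest difference of the knockdown from the mean of the controls, and the 3 closest patterns per gene. Members and lists were chosen with earlier results of these data known. Alternatives were other pseudocounts, filters, scalings and folds. After seeing the data, removal of the trend with transcript length, each library left out in turn, and the rank counts were added. Promoter sequences are from the RefSeq table of GRCm38.p6; no mm9 coordinate was used. Pmaip1 has no promoter here.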

Additional observations from a re-analysis of the deposited data

How the results depend on the processing

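The count of 3 genes below both controls in the knockdown was 2 with a pseudocount of 5, with quantile normalization and with the 8-fold rule, 4 with the 2-fold rule and 3 under every other setting tried. Over all genes that count was 835, and it was 372 with a pseudocount of 5, 403 with the 8-fold rule and 1879 with the 2-fold rule. With a pseudocount of 0.1, the H3.2 mRNA library had 2 genes above the knockdown and 1 above the H3.3 mRNA library, the added gene being Pmaip1. With quantile normalization the H3.3 mRNA library had 1 gene above the knockdown, Gadd45a, and 5 genes were highest in the untreated library. With the 2-fold rule, the knockdown had 7 genes below untreated and 1 above luciferase, the H3.3 mRNA library had 1 gene below and the H3.2 mRNA library 4 above the knockdown, and the H3.2 mRNA library had 2 genes above and 2 below the H3.3 mRNA library. With the 8-fold rule, 0 genes were higher and 1 lower in luciferase than in untreated, and the H3.3 mRNA library had 1 gene above the knockdown. Leaving out the untreated library gave 2 genes higher in all 3 knockdown libraries, and leaving out luciferase gave 9 lower. Transcripts of greater length were lower in the knockdown than in luciferase (rank correlation across 5894 genes -0.39) and higher with H3.2 mRNA than in the knockdown (0.51), and removal of that trend left each count of called genes as it was. It turned the difference of Mdm2 between H3.3 mRNA and knockdown from 0.10 to -0.14, and brought that of Trp53 between knockdown and luciferase from -0.47 to -0.06. Upper-quartile scaling moved the median difference of all genes between luciferase and untreated from 0.02 to 0.28, and between H3.2 mRNA and knockdown from 0.15 to 0.36. Beside fewer or more genes past a fold, the cause of these shifts was not tested. No paired analysis was possible because each group holds 1 library. Replicates could not be left out for the same reason.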
